A study of Mus musculus with 4 samples.

Results

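Blood and lymphatic endothelial genes are a set of 34 genes known from the cells that line blood and lymph vessels, taken by symbol from the 24442 genes of the table, and all 34 had a row. They were followed in mammary cells of 5-week-old female mice carrying an eGFP reporter with a CreErt2 recombinase at the Lgr6 locus. No treatment is given in the labels. Cells were obtained by enzymatic digestion of the glands, lysis of red blood cells and a sort of lineage-negative cells. The sort for LGR6+ cells stands behind 2 Lgr6-positive libraries, and 2 further libraries are labelled Lgr6 negative. No source used here gives the lineage antibodies, the gate of the negative cells or the number of animals behind a library, nor whether replicates were separate animals. The p-values therefore reflect how far these 4 libraries scatter, and that scatter may be technical.

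Endothelial cells hold vessels together with the cadherin Cdh5 and the adhesion molecule Pecam1, and they read vascular endothelial growth factor (VEGF) through Kdr, Flt1 and Flt4 and angiopoietins through Tek. Sox7, Sox17 and Sox18 form the SoxF family of transcription factors that set endothelial identity, and Prox1 turns it towards the lymphatic kind. Selectins on the vessel wall catch passing leukocytes. In the mammary gland, capillaries and lymph vessels run through the fat pad and around the ducts. Pecam1 encodes CD31, which is often among the antigens used to remove non-epithelial cells from mammary preparations, and whether it was used here is not stated.

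Total counts were between 6819127 and 7167465 per library, with 11959 to 14144 genes detected, and the 45S ribosomal RNA precursor Rn45s took 14.5% to 30.8% of them. For Lgr6 itself, 172 and 655 counts were found in Lgr6-positive cells and 3 and 10 in Lgr6-negative cells. The counts lie in the order of the labels, but the difference just missed the threshold (log2 fold change 5.52, adjusted p = 0.0510). Both Lgr6-negative libraries were under the cutoff of the filter on low counts. Lgr6 was thus tested through the Lgr6-positive libraries alone, so its direction is no result. Levels are given as TMM-normalized CPM (counts scaled by library size and by edgeR's factor between libraries), and 3 counts corresponded to 0.368 to 0.533 CPM. Differences were tested with edgeR's quasi-likelihood test over 11661 genes, with a call at a Benjamini-Hochberg adjusted p under 0.05.

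The promoters of 5 members are shown because they cover the selectins that were called (Sele and Selp), a growth factor receptor and a co-receptor that were called (Flt1 and Eng), and the member that lay lowest (Hhex). Each line holds the 140 bases before the transcript start from RefSeq on GRCm38.p6, written 5′ to 3′ on the gene's strand. Capitals mark the ETS core AGGAAG on either strand, which ETS factors such as Erg can bind, and the TATA box TATAAA.
Sele (chr1:164048094-164048233, plus strand): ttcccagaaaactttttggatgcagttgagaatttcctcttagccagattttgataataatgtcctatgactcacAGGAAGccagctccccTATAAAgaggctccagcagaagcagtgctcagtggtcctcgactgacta
Selp (chr1:164115124-164115263, plus strand): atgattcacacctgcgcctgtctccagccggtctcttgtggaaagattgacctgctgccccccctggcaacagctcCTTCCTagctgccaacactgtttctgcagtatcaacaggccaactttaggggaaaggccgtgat
Flt1 (chr5:147726012-147726151, minus strand): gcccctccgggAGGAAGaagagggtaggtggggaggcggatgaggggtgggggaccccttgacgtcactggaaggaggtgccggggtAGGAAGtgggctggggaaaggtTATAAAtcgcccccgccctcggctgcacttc
Eng (chr2:32646455-32646594, plus strand): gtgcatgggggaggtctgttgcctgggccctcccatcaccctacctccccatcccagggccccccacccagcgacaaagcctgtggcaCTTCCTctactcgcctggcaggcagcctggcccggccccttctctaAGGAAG
Hhex (chr19:37434701-37434840, plus strand): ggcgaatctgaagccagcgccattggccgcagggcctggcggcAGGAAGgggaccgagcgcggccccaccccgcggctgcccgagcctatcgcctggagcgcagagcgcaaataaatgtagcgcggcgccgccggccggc

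The ETS core starts 65 bases before the transcript start in Sele and 64 bases in Selp. It was also in the promoter of Hhex, which was not called. Promoter windows were at hand for 16 of the 34 members, with 20 windows in all, and the 250 bases before the start were searched on both strands. The ETS core was in 11 of these 20 windows (55.0%) and in 29.5% of all 32851 windows. The SOX core AACAAT was in 4 of 20 (9.42% of all), the GATA core AGATAA in 1 of 20 (9.99% of all), the TATA box in 4 of 20 (12.4% of all), and the NF-kB pattern in 0 of 20 (4.11% of all). These are letter matches in short windows and no test was made of them.

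Endothelial genes were higher in Lgr6-positive cells as far as they differed. Of the 34 genes, 12 were called higher and none lower, 20 did not pass, and Lyve1 and Mmrn1 were under the filter on low counts. Over the whole table, 4.49% of tested genes were called higher and 4.57% lower, 9.06% in either direction. No member was lower at an unadjusted p under 0.05 in edgeR either, and DESeq2 and limma-voom called 0 lower. The 12 were Pecam1, Cdh5, Ptprb, Podxl, Selp, Sele, Kdr, Flt1, Eng, Adgrf5, Vwf and Sox7, with log2 fold changes from 2.37 to 9.64 and adjusted p-values from 0.00143 to 0.0438.

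The 34 genes summed to 4121 and 5035 CPM in the Lgr6-positive libraries and to 579 and 571 CPM in the Lgr6-negative libraries, a ratio of the sums of 7.96. That was 0.493% and 0.568% of all counts against 0.0536% and 0.0448%. Transcripts of most of these genes were found in both populations, while Prox1, Mmrn1 and Lyve1 had no counts in Lgr6-negative cells. In sorted bulk samples, fewer endothelial cells, less RNA per endothelial cell and transcripts of these genes from other cells cannot be told apart.

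In 31 of the 34 genes, both Lgr6-positive libraries lay above both Lgr6-negative libraries. This held for 29 of the 32 tested members, beside 30.0% of all tested genes. The exceptions were Esam and Icam2, whose populations overlapped, and Hhex, which lay below (25.9% of all tested genes did). The median log2 fold change of the 32 tested members was 2.95, against 0.10 over all tested genes. Of the 32, 5 (Sele, Gpihbp1, Sox7, Sox17 and Prox1) passed the filter through the Lgr6-positive libraries alone and so had to be higher there, and Sele and Sox7 among them were called. DESeq2 called 19 members higher, among them the 12, and 1566 of the 12303 genes it tested over the whole table.

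**Figure D1:**
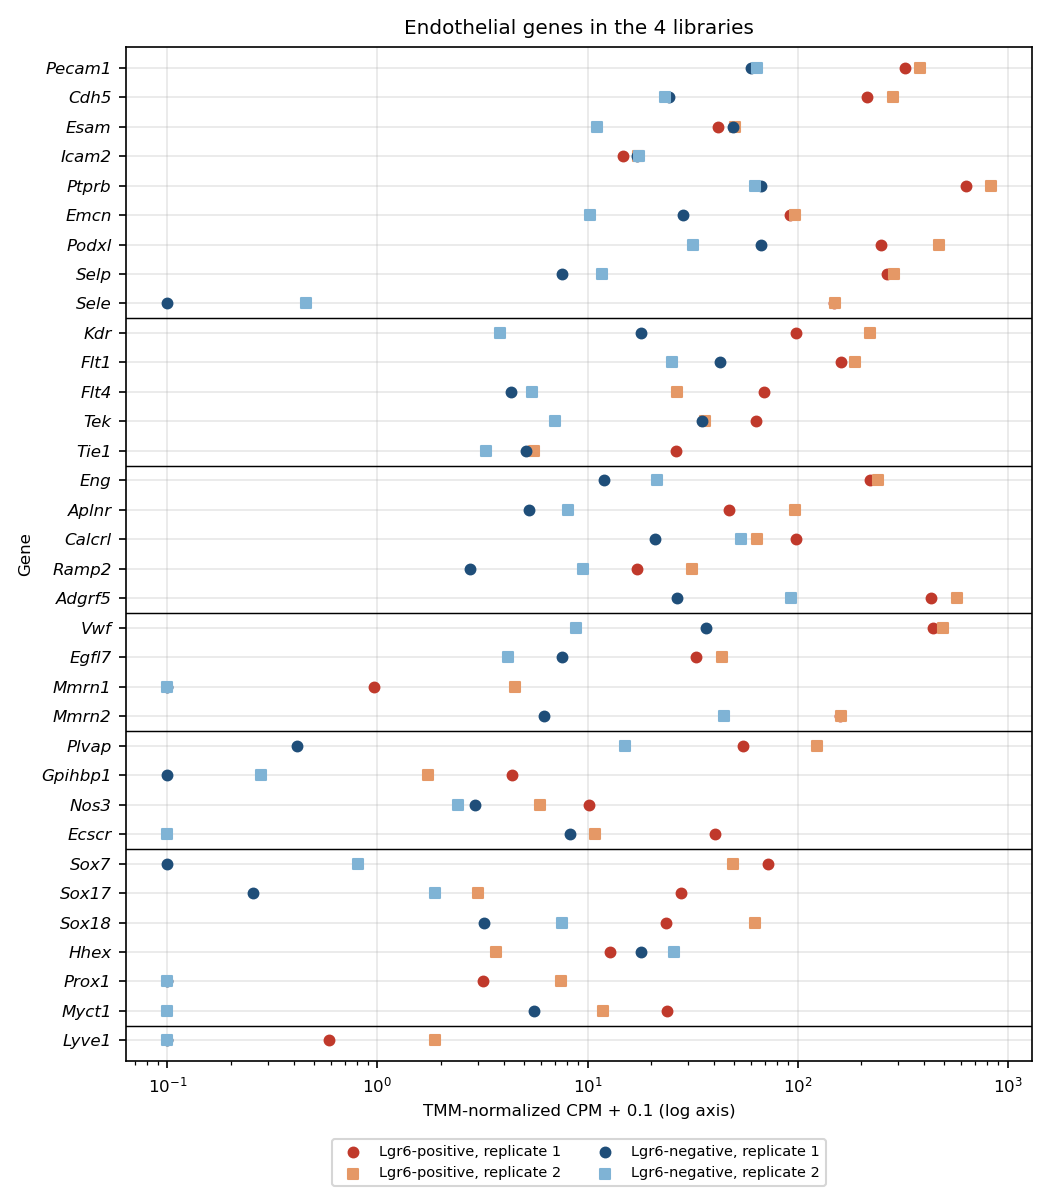
Level of each of the 34 endothelial genes in the 4 libraries, as TMM-normalized CPM plus 0.1 on a log axis, with lines between groups of related function. Each point is 1 library, points at 0.1 have no counts, and both Lgr6-positive libraries lie right of both Lgr6-negative libraries in 31 genes.

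Among the adhesion and surface genes, 6 of 9 were higher, beside 4.49% of all tested genes. Ptprb, the vascular endothelial receptor tyrosine phosphatase that restrains Tek and holds junctions closed, was at 630 and 831 CPM in the Lgr6-positive and 67.1 and 62.6 CPM in the Lgr6-negative libraries. The groups were far apart and the libraries within each were close (log2 fold change 3.49, SE 0.39, adjusted p = 0.00143). Ptprb spans bases 116275523 to 116389535 of chromosome 10 in GRCm38, the build used for all positions.

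Cdh5, the cadherin of endothelial junctions on chromosome 8 from 104101625 to 104144511, was at 214 and 285 CPM against 24.2 and 23.3 CPM. Its log2 fold change was 3.39 (SE 0.55, adjusted p = 0.00699). Pecam1, on chromosome 11 from 106654217 to 106750628, was at 326 and 380 CPM against 60.1 and 63.8 CPM. Its 2 Lgr6-negative libraries were close together at a level well above the floor, so the transcript of CD31 was measurable in both populations. The difference was smaller than that of Cdh5 on the log2 scale (2.51, SE 0.44, adjusted p = 0.0105), and the gap between the genes was not tested. Leukocytes and platelets also make Pecam1. Podxl, a sialomucin of the luminal surface on chromosome 6 from 31519488 to 31563981, was at 249 and 472 CPM against 66.6 and 31.6 CPM (log2 fold change 2.87, SE 0.57, adjusted p = 0.0167), and the value ran from 2.32 without Lgr6-positive replicate 2 to 3.50 without Lgr6-negative replicate 1.

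Both selectins among the members were called higher. Sele, E-selectin, which activated endothelium displays to slow leukocytes, was at 149 and 150 CPM in the Lgr6-positive libraries, with 1217 and 1182 counts. Among the Lgr6-negative libraries, replicate 1 held none and replicate 2 held 2 counts. Sele passed the filter through the Lgr6-positive libraries alone, so its direction is no result. Pooled counts gave a 900-fold ratio, and its 95% interval of 249 to 7433 covers counting error only. The fitted log2 fold change was 9.64 (SE 1.21, adjusted p = 0.00230), or 8.63 without Lgr6-negative replicate 1. Without replicate 2 of that population no counts were left there and no ratio can be given.

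Selp, P-selectin, is stored in granules of endothelial cells and platelets and brought to the surface on activation. It was at 267 and 287 CPM against 7.49 and 11.6 CPM, with the libraries of each population close together (log2 fold change 4.86, SE 0.59, adjusted p = 0.00202). Other annotated genes (Gm16548 and Gm16587) cover 14.1% of its exonic bases, and the strand setting is not given, so part of the counts may belong to them.

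Sele and Selp lie on the same strand of chromosome 1, at bases 164048234 to 164057677 and 164115264 to 164150026.

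The other 3 surface genes did not pass. Emcn, the sialomucin endomucin of capillaries and veins, was at 92.1 and 97.6 CPM against 28.2 and 10.1 CPM, without overlap (log2 fold change 2.30, adjusted p = 0.126). Its value was 3.21 without Lgr6-negative replicate 1 and 1.73 without replicate 2. Esam, a junction protein that platelets share, was at 41.4 and 50.2 CPM against 49.3 and 11.0 CPM, so 1 Lgr6-negative library lay among the Lgr6-positive libraries (0.60, adjusted p = 0.801). Its fold change was 2.04 without Lgr6-negative replicate 1 and turned negative, at -0.12, without replicate 2. Icam2, an integrin ligand of endothelium that leukocytes and platelets also carry, was at 14.6 and 17.2 CPM against 17.0 and 17.4 CPM. Its log2 fold change was -0.11 (SE 1.28, adjusted p = 0.978), or 0.33 under library-size scaling, which moves the median of all genes by 0.45.

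Of the 5 VEGF and Tie receptors, 2 were higher, beside 4.49% of all tested genes, and 3 did not pass. Each of the 5 lay higher in both Lgr6-positive libraries than in both Lgr6-negative libraries, beside 30.0% of all tested genes. Kdr (VEGFR2), the main signalling receptor for VEGF-A on chromosome 5 from 75932827 to 75978458, was at 98.0 and 220 CPM against 17.9 and 3.73 CPM. The libraries of each population differed more than for Cdh5 or Pecam1, but the populations did not overlap (log2 fold change 3.87, SE 0.93, adjusted p = 0.0352). The log2 fold change was 5.40 without Lgr6-negative replicate 1 and 3.14 without replicate 2 of that population. Without Lgr6-positive replicate 2 it was also 3.14 and the call was lost (adjusted p = 0.0516), as it was in limma-voom (0.0859), in a range from 5.85e-05 over 12 alternatives.

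Flt1 (VEGFR1), which binds VEGF-A tightly and in its soluble form traps it, lies on chromosome 5 from 147561604 to 147726011. It was at 161 and 188 CPM against 42.4 and 25.1 CPM (log2 fold change 2.37, SE 0.60, adjusted p = 0.0438). The call was lost without Lgr6-negative replicate 2 (adjusted p = 0.148, in a range from 0.00580), where the log2 fold change was 2.02. Flt4 (VEGFR3), the VEGF-C receptor of lymphatic and sprouting endothelium, was at 68.8 and 26.5 CPM against 4.21 and 5.33 CPM (3.31, adjusted p = 0.122). Its Lgr6-positive libraries differed 2.60-fold, and the value without replicate 1 of them was 2.46.

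Tek (TIE2), the angiopoietin receptor, was at 63.3 and 36.1 CPM against 34.9 and 6.93 CPM (log2 fold change 1.25, adjusted p = 0.568). The lower Lgr6-positive library lay just above the higher Lgr6-negative library, and the value was 2.82 without Lgr6-negative replicate 1 and 0.49 without replicate 2. Tie1, its partner receptor, was at 26.2 and 5.45 CPM against 4.99 and 3.20 CPM (1.95, adjusted p = 0.559), and its value was 0.41 without Lgr6-positive replicate 1 and 2.65 without replicate 2.

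Among the other receptors, Eng and Adgrf5 were higher. Eng, endoglin, the co-receptor for BMP9 and TGF-beta on chromosome 2 from 32646595 to 32682669, was at 221 and 242 CPM against 11.9 and 21.3 CPM (log2 fold change 3.80, SE 0.61, adjusted p = 0.00695). Adgrf5, an adhesion G protein coupled receptor of capillaries on chromosome 17 from 43360451 to 43459557, was at 433 and 573 CPM against 26.5 and 92.6 CPM. Its Lgr6-negative libraries were spread, and the log2 fold change of 3.08 (SE 0.62, adjusted p = 0.0169) was 2.43 without replicate 1 and 4.23 without replicate 2 of that population.

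Aplnr, the apelin receptor, was at 47.1 and 96.6 CPM against 5.15 and 8.00 CPM and did not pass (log2 fold change 3.45, SE 1.02, adjusted p = 0.0707). It passed under 4 of 12 alternatives, and its value was 2.81 without Lgr6-positive replicate 2. Calcrl and Ramp2 together form the adrenomedullin receptor that keeps vessels tight. Calcrl was at 97.9 and 64.1 CPM against 20.9 and 53.5 CPM (1.12, adjusted p = 0.465, and 1.93 without Lgr6-negative replicate 2). Ramp2 was at 17.2 and 31.3 CPM against 2.65 and 9.42 CPM (adjusted p = 0.472), with a log2 fold change of 1.35 without Lgr6-negative replicate 1 and 3.17 without replicate 2, and 33.4% of its exonic bases lie in its neighbour Vps25. Neither gene of that receptor passed, although their populations did not overlap.

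Of the secreted and matrix genes, Vwf was higher. The von Willebrand factor is the clotting protein kept in the same endothelial granules as P-selectin, and its gene spans bases 125546774 to 125686679 of chromosome 6. It was at 441 and 494 CPM against 36.4 and 8.71 CPM (log2 fold change 4.37, SE 0.70, adjusted p = 0.00693). The value was 5.73 without Lgr6-negative replicate 1 and 3.67 without replicate 2. Mmrn2, a matrix protein that binds VEGF-A, was at 158 and 160 CPM against 6.08 and 44.6 CPM, and it did not pass (2.65, SE 0.91, adjusted p = 0.105). The value was 1.82 without Lgr6-negative replicate 1 and 4.69 without replicate 2. It passed under 6 of 12 alternatives. Egfl7, a secreted guide of vessel tube formation, was at 32.6 and 43.5 CPM against 7.49 and 4.09 CPM (2.71, SE 1.22, adjusted p = 0.211), with 11.2% of its exonic bases in other genes.

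None of the 4 genes of capillary structure and vascular tone was called, by edgeR, and 1 was higher at an unadjusted p under 0.05. Plvap forms the diaphragms of capillary pores. It was at 54.8 and 123 CPM against 0.312 and 14.9 CPM (log2 fold change 3.55, adjusted p = 0.167) and passed under 5 of 12 alternatives, DESeq2 among them. The value was 2.56 without Lgr6-negative replicate 1 and 8.07 without replicate 2. Ecscr, an endothelial surface protein, was at 40.3 and 10.8 CPM against 8.11 and 0 CPM. Nos3, the endothelial nitric oxide synthase, was at 10.1 and 5.83 CPM against 2.81 and 2.31 CPM, with 32.3% of its exonic bases in other genes. Gpihbp1 carries lipoprotein lipase across capillaries of fat and muscle. Its counts were 35 and 13 against 0 and 1, 36.0-fold apart when pooled (95% interval for counting error 6.16 to 1451). Ecscr, Nos3 and Gpihbp1 had adjusted p-values of 0.502, 0.666 and 0.253. Gpihbp1 passed the filter through the Lgr6-positive libraries alone, so its direction is no result.

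Of the 6 regulators, only Sox7 was called in edgeR. Sox7, on chromosome 14 from 63943673 to 63950732, was at 72.1 and 49.2 CPM, from 588 and 388 counts, against 0 and 4 counts in Lgr6-negative cells (log2 fold change 7.38, SE 1.66, adjusted p = 0.0280). Without Lgr6-negative replicate 1 it was 6.36, and without replicate 2 no counts were left there. Sox18 was at 23.4 and 62.8 CPM against 3.12 and 7.47 CPM (3.02, SE 1.26, adjusted p = 0.173), with 2.12 without Lgr6-positive replicate 2 and 3.77 without Lgr6-negative replicate 2. Sox17, the SoxF member best known from arteries, was at 27.7 and 2.91 CPM against 0.156 and 1.78 CPM (3.97, SE 2.13, adjusted p = 0.307), with 1.58 without Lgr6-positive replicate 1 and 6.44 without Lgr6-negative replicate 2. Sox17 was 9.51-fold and Sox7 1.47-fold higher in Lgr6-positive replicate 1 than in replicate 2, while Sox18 was at a ratio of 0.373. Sox7 and Sox17 passed the filter through the Lgr6-positive libraries alone, so their direction is no result.

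Myct1, a small endothelial membrane protein grouped here with the regulators, was at 23.7 and 11.8 CPM against 5.46 and 0 CPM (adjusted p = 0.514). Hhex, a homeobox factor of early endothelium that is named for its expression in blood cells, was at 12.8 and 3.55 CPM in the Lgr6-positive and 17.8 and 25.6 CPM in the Lgr6-negative libraries. It was the single member with both Lgr6-positive libraries below both others, and the difference did not pass (log2 fold change -1.41, SE 1.43, adjusted p = 0.637). The value was -2.61 without Lgr6-positive replicate 1 and -0.79 without replicate 2.

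**Figure D2:**
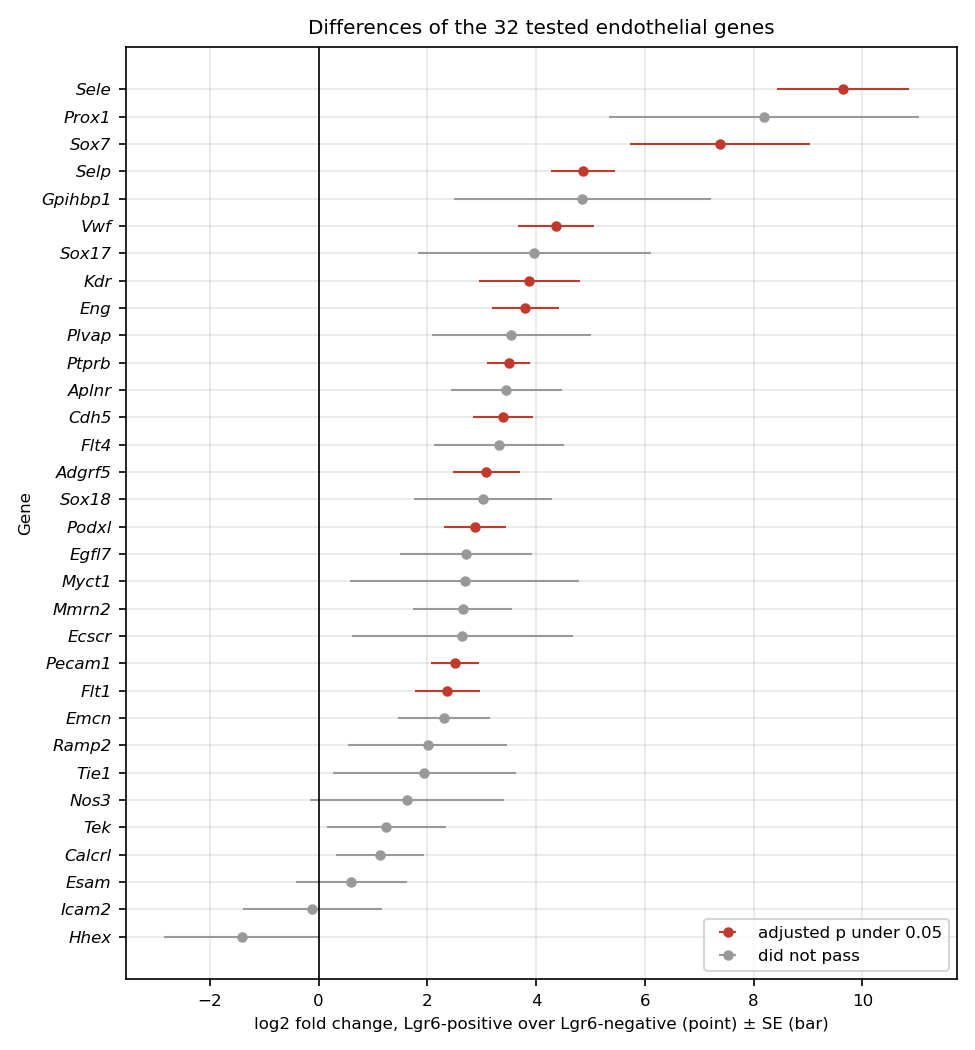
Log2 fold change of the 32 tested endothelial genes, Lgr6-positive over Lgr6-negative, as points with SE as bars. The 12 genes past an adjusted p of 0.05 are in red and lie between 2.37 and 9.64, while Icam2 and Hhex are the points below 0.

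Genes known from lymph vessels were scarce. Prox1, the lymphatic master regulator, was found with 25 and 58 counts in Lgr6-positive cells and none in Lgr6-negative cells. Its mean Lgr6-positive CPM was 10.4 times the mean Lgr6-negative floor of 3 counts per library. Prox1 did not pass (adjusted p = 0.118), and it was tested through the Lgr6-positive libraries alone, so its direction is no result. Lyve1, the hyaluronan receptor of lymph capillaries that some macrophages also make, had 4 and 14 counts against none, with a mean 2.26 times that floor. In Lgr6-positive replicate 1 it was at 0.490 CPM, under the floor of 0.533 CPM in Lgr6-negative replicate 2. Mmrn1, a multimerin of lymphatic endothelium and platelets, had 7 and 35 counts against none, with a mean 5.29 times the mean floor. Lyve1 and Mmrn1 were not tested. Each of the 3 had more counts in Lgr6-positive replicate 2, while Flt4, which blood vessels can share, had more in replicate 1.

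For an order of the members by level, CPM was taken per kilobase of exon (CPM over the exonic length in GENCODE M21). On that scale the Lgr6-positive means were led by Podxl (65.7), Selp (62.7), Cdh5 (59.4), Eng (57.2), Pecam1 (56.7), Adgrf5 (55.8), Ptprb (54.8) and Sele (51.3). The libraries of these 8 genes lay between 45.5 and 86.0, so neighbours in that order did not differ beyond the spread. Lyve1 (0.388), Mmrn1 (0.451) and Prox1 (0.621) were the lowest. In the Lgr6-negative libraries the order began with Esam (10.5), Pecam1 (9.95), Icam2 (9.04) and Podxl (8.95). Esam was at 17.2 and 3.84 and Podxl at 12.1 and 5.77 in the single libraries, so this order did not hold beyond the spread either. Sele ranked 8 of 34 in Lgr6-positive and 30 in Lgr6-negative cells, and Hhex 30 and 11.

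Each gene was also taken as a share of the summed CPM of the 34 genes, which removes the difference in total. Ptprb held 15.3% and 16.5% of the Lgr6-positive and 11.6% and 10.95% of the Lgr6-negative sum. Selp held 6.47% and 5.70% against 1.29% and 2.02%, and Vwf 10.7% and 9.81% against 6.28% and 1.52%. Pecam1 went the other way, at 7.90% and 7.55% against 10.4% and 11.2%. Hhex held 0.309% and 0.0705% against 3.07% and 4.48%, and Icam2 0.354% and 0.342% against 2.94% and 3.05%. In all, 11 shares were higher and 7 lower in both Lgr6-positive libraries, and 16 overlapped. For CPM, which is a different measure, 30.0% of all tested genes lay above and 25.9% below without overlap. No such rate was computed for shares, so these counts are no result about the members. Shares within a sum are bound to each other, and no test was made of them.

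**Figure D3:**
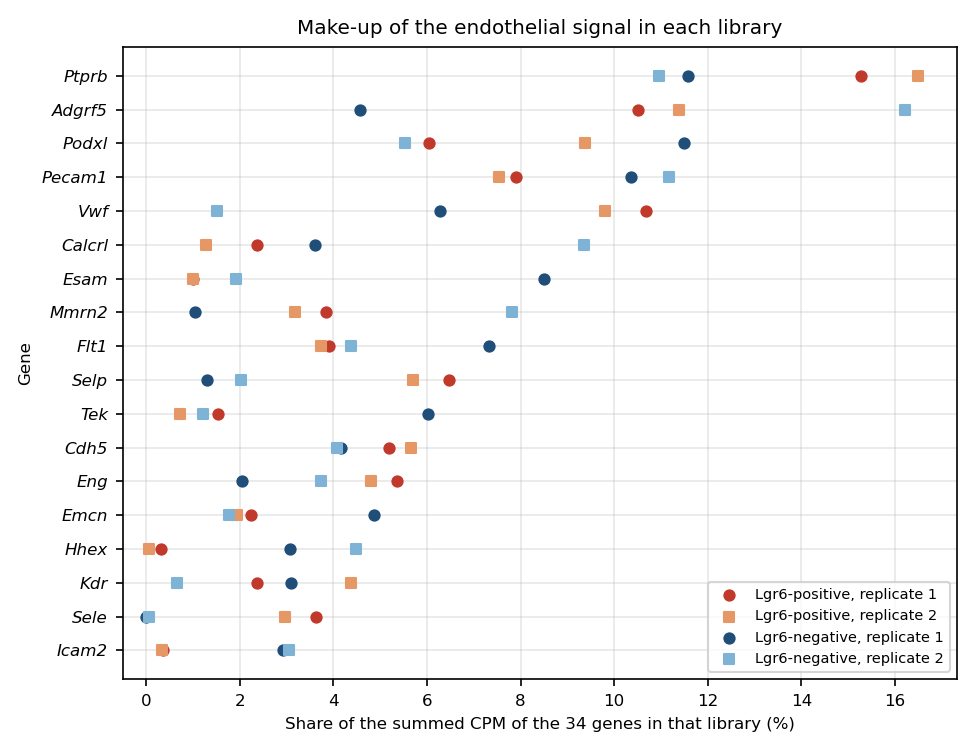
Share of the summed CPM of the 34 endothelial genes held by each of the 18 genes with the largest single share, in percent, with 1 point per library. Selp, Sele and Ptprb take larger and Icam2, Hhex and Pecam1 smaller shares in both Lgr6-positive libraries.

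Within the Lgr6-positive population, 20 of the 34 genes differed less than 2-fold between the libraries, 7 were higher in replicate 1 and 7 in replicate 2 by more. The called genes were within 2-fold in 11 of 12 cases, the exception being Kdr. The 20 genes that did not pass had fewer reads behind them, not corrected for gene length, with mean Lgr6-positive CPM from 2.97 to 159 and a median of 31.8, against 60.6 to 730 and a median of 263 for the called genes. Of the 34 genes, 13 had Lgr6-negative libraries within 2-fold of each other. A gene that did not pass may therefore still differ.

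Of 16 ligands and co-receptors of these receptors in the table, 8 were tested. In edgeR 1 was higher, beside 4.49% of all tested genes, and 7 did not pass. None was lower at an unadjusted p under 0.05. DESeq2 called 5 higher and 1 lower. Nrp2, a neuropilin that binds VEGF-C beside Flt4, was at 247 and 85.0 CPM against 2.81 and 11.9 CPM (log2 fold change 4.49, SE 0.96, adjusted p = 0.0225). Its call was lost without Lgr6-positive replicate 1 (log2 fold change 3.53, adjusted p = 0.0505) and in limma-voom (0.1001), with 6.07e-09 as the lowest over 12 alternatives. The value was 3.78 without Lgr6-negative replicate 1 and 5.85 without replicate 2.

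Of 15 transcription factors outside the 34 genes, 13 were tested and 3 were higher, beside 4.49% of all tested genes. The other 10 did not pass, and 8 of those had negative fold changes. None was called lower by edgeR, where 3 had an unadjusted p under 0.05, and limma-voom called 2 and DESeq2 1 lower. The 8 were Fli1, Tal1, Lyl1, Lmo2, Gata2, Ets1, Klf2 and Klf4, named after their values were seen. Blood cells also make these genes, and whether that bears on their direction was not tested. Erg, an ETS factor that maintains endothelial identity, was at 114 and 99.3 CPM with 4 and 0 counts in the Lgr6-negative libraries (log2 fold change 8.29, SE 1.38, adjusted p = 0.00805). Without Lgr6-negative replicate 2 it was 7.36, and without replicate 1 no counts were left there. Erg passed the filter through the Lgr6-positive libraries alone, as did Nr2f2, so their direction is no result. Nr2f2 (COUP-TFII), a factor of venous identity that stromal cells also make, was at 9.20 and 133 CPM with no counts in Lgr6-negative cells (adjusted p = 0.0206, and 0.221 without Lgr6-positive replicate 2, in a range from 1.34e-07). Hey1, a Notch target of arteries and other tissues, was at 205 and 66.9 CPM against 7.65 and 7.64 CPM (4.15, SE 0.85, adjusted p = 0.0193), with the call lost without Lgr6-positive replicate 1 (3.12, adjusted p = 0.116) and in limma-voom (0.118), against a lowest value of 8.05e-07.

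Of 35 other endothelial genes, 32 were tested. In edgeR 7 were higher, beside 4.49% of all tested genes, and 25 did not pass. None was lower in edgeR, at an adjusted or unadjusted p under 0.05, or in DESeq2 and limma-voom. The water channel Aqp1 was at 467 and 308 CPM against 27.6 and 16.2 CPM (log2 fold change 4.14, SE 0.54, adjusted p = 0.00279). The fatty acid carrier Cd36, which fat cells and macrophages share, was higher by 2.19 (SE 0.41, adjusted p = 0.0132). The chemokine scavenger Ackr3 was higher by 5.30 (SE 1.15, adjusted p = 0.0234). The venous receptor Ephb4 was higher by 5.10 (SE 1.18, adjusted p = 0.0310), with 4.20 without Lgr6-negative replicate 1, 7.64 without replicate 2 and no call by limma-voom (0.0504, the lowest value being 9.79e-07). The remaining 3, named after their values were seen, were Heg1, Apold1 and Ackr1, whose calls were each lost under 3 to 5 of 12 alternatives.

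The summed levels of other marker lists are given beside the endothelial genes, with no test of the sums. Over all tested genes, 4.49% were called higher and 4.57% lower. Of 9 epithelial markers, 8 were higher, and all 9 summed to 4746 to 4765 CPM in Lgr6-positive and 196 to 197 CPM in Lgr6-negative libraries. Of 9 fibroblast markers, 3 were higher, and the list summed to 635 to 894 against 84.7 to 127 CPM, with Pdgfra at 0 in the Lgr6-negative libraries. Pi16 lay the other way, at 6.38 and 6.72 against 44.5 and 52.3 CPM, and did not pass (log2 fold change -2.88, adjusted p = 0.137). Of 9 mural cell markers, 7 were tested and 1 was higher, Rgs5, at 31.8 and 40.9 against 0 and 0.178 CPM. The mural list summed to 314 to 483 against 33.6 to 47.4 CPM, of which Myh11 made up 153 and 160 against 46.0 and 13.2 CPM. Kcnj8 and Des, with at most 4 counts in a library, were at 0 in the Lgr6-negative libraries. Of 8 red cell markers, 6 were higher, and the list summed to 1186 to 1395 against 19.7 to 23.9 CPM. Hbb-b2 and Hbb-bt had the same counts in every library. Both are in the 6 and in the sum, although they cannot be taken as separate measurements. Of the called genes, Pdgfra, Rgs5, Hba-a2, Hbb-b2, Hbb-bt and Hbb-bs passed the filter through the Lgr6-positive libraries alone, so their direction is no result. Of 8 adipocyte markers, 2 were tested and Lpl, which other cells share, was higher, at 435 and 443 against 31.7 and 22.6 CPM. Plin4 lay the other way, at 1.59 and 0 against 5.62 and 1.60 CPM, and did not pass (log2 fold change -2.15, adjusted p = 0.651). The adipocyte list summed to 443 to 459 against 24.2 to 37.3 CPM, most of it Lpl, with Lep, Retn and Cidec at 0 in all libraries.

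The leukocyte markers went the other way, with 10 of 14 lower, beside 4.57% of all tested genes, and 0 higher. Their sums were 2135 to 2503 against 29641 to 32871 CPM, and none was at 0 in a whole population. Platelets share Vwf, Selp, Pecam1, Esam and Mmrn1 with endothelium. Of 10 platelet markers, 2 were tested and neither passed, with sums of 23.4 to 25.5 against 0.156 to 1.78 CPM. Gp9, Gp5 and Treml1 had no counts in any library and Gp1ba 1 count, while Pf4 reached 114 and 150 counts in Lgr6-positive cells and none elsewhere. The part of any of these cells in the endothelial differences was not tested.

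**Figure D4:**
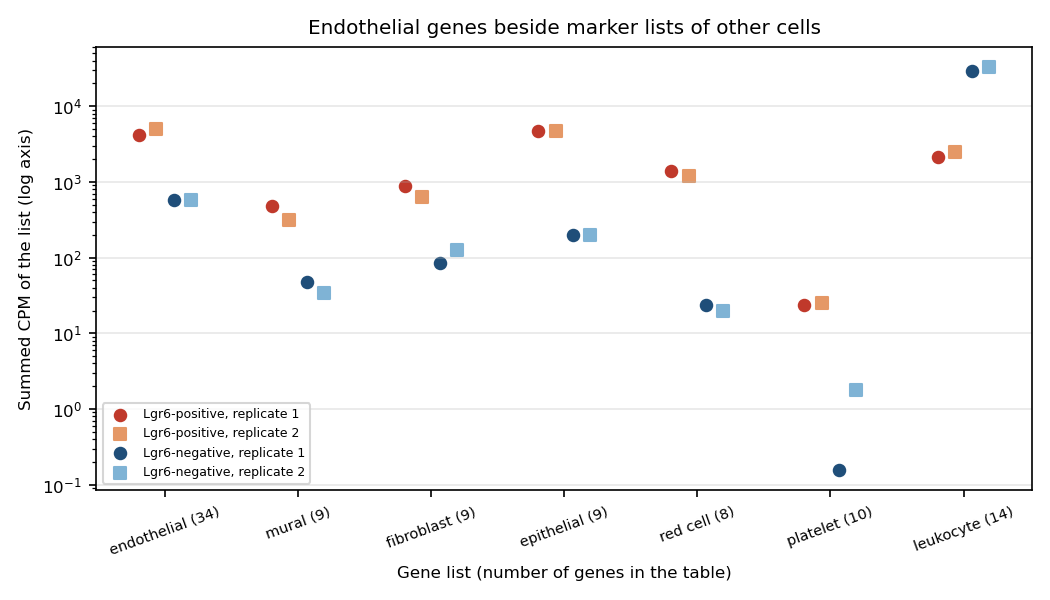
Summed CPM of the 34 endothelial genes and of 6 marker lists in each library on a log axis, with 1 point per library and the number of genes in the table in brackets. The endothelial sum is higher in both Lgr6-positive libraries, as are the mural, fibroblast, epithelial, red cell and platelet sums, while the leukocyte sum is higher in both Lgr6-negative libraries.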

How the data were processed

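Per the file headers and the submitters' processing notes, the values are RSEM (1.2.22) expected counts for 24442 genes in 4 libraries, which the authors deposited without scaling for depth, and STAR 2.4.2a and mm10 are also listed. Annotation and strand setting: not given in the sources used here. Counts were rounded to whole numbers (3.36% to 4.86% of genes in a library had a fraction). Tests used R 4.3.3 and edgeR 4.0.16, with filterByExpr (minimum count 10, minimum total 15), TMM factors and the quasi-likelihood test on population, adjusted by Benjamini-Hochberg over 11661 genes. A log2 fold change above 0 is higher in Lgr6-positive cells, and its SE is the absolute value over the square root of F. The steps were tested on simulated data. DESeq2 1.42.0, limma-voom (limma 3.58.1), other scalings and filters, a replicate block and leaving out each library were alternatives. Replicates differed beyond counting noise (chi-square per gene 101 and 87.0). GENCODE M21 gave positions and exonic lengths for 34 of 34 genes. The members, lists and tests were chosen with earlier results of these data known. All 34 members are named, and of each other list up to 4 called genes with the smallest p-values. Some items are not reported here.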

Additional observations from a re-analysis of the deposited data

How the results depend on the processing

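The count of members called higher was 12 as reported and 19 in DESeq2, 12 to 15 with 1 library left out, 14 with the replicate number as a block and 11 to 15 under the other alternatives, and no member was lower under any. The median log2 fold change of the tested members was 3.38 under library-size scaling, 2.72 with a stricter filter, 3.36 in limma-voom, 3.29 with the replicate block and 2.65 to 3.26 with 1 library left out. Fold changes of the members kept their direction and side of the threshold in 355 of 379 comparisons, passed only under the alternative in 19, lost a call in 3 (Kdr and Flt1) and reversed in 2. The reversals were Esam (-0.12 to 2.04 with 1 library left out, the negative value without Lgr6-negative replicate 2) and Icam2 (0.33 under library-size scaling), neither of them called, and the cause was not tested. Library-size scaling made 65.8% of all calls higher, against 49.6% as reported, and DESeq2 60.4%. Over all tested genes, 524 of 11661 were called higher as reported, 1566 of 12303 in DESeq2 and 967 of 15897 without a filter.

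Ligands and co-receptors called higher numbered 1, with 5 in DESeq2 and 0 to 2 with 1 library left out, and those called lower 0, with 1 without a filter, 1 in DESeq2 and 0 to 1 with 1 library left out. Transcription factors called lower numbered 0, with 2 without a filter, 1 in DESeq2, 2 in limma-voom, 2 with the replicate block and 1 to 2 with 1 library left out. Other endothelial genes called higher numbered 7, with 12 without a filter, 13 in DESeq2 and 8 to 12 with 1 library left out. The labels give the populations the same replicate numbers, but nothing says that a number marks a shared animal or day, and the deviations of equally numbered libraries correlated at -0.024 across genes, so the block is no paired design. Depth limits Lyve1, Mmrn1, Gpihbp1 and Prox1, whose Lgr6-negative libraries hold at most 1 count.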
